A study of Mus musculus with 6 samples.

Results

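Imprinted genes of the mouse retina were followed here through 11 cell types and through nuclei of Muller glia with and without a ciliary-like population. The 10 genes, of 32285 genes in the deposited tables, were Meg3, Rian, Mirg, Mest, Peg3, Snrpn, Snhg14, Grb10, Ndn and Zrsr1, and were taken by symbol, with all 10 found. They were picked with the comparison of IL-27 against saline in Muller nuclei already known, so their values in that comparison are a description and carry no test. The study profiled nuclei from frozen retinas of rd10 mice (strain B6.CXB1-Pde6b-rd10/J), a model in which a Pde6b mutation makes rods degenerate. All animals carried that mutation, and retinas were collected at postnatal day 20. Eyes had received an intravitreal injection at postnatal day 18 of either saline, the control, or 20 ng of recombinant IL-27, a cytokine of the IL-12 family. Each group has 3 libraries, saline replicates 1, 2 and 6 and IL-27 replicates 4, 5 and 10. Injections were given into 1 eye per mouse, and p-values measure the spread between these libraries.

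Imprinted genes are transcribed mainly from the copy inherited from 1 parent, and DNA methylation set in the germline marks which copy is silent. Many are grouped at a few loci where a noncoding RNA and protein-coding neighbours are read from opposite parental copies. The reads here were counted per gene and not per allele, so the parental copy behind each UMI was not measured. Meg3, Rian and Mirg are maternally transcribed noncoding RNAs of the Dlk1-Dio3 locus, in that order along 1 strand. Mest (a hydrolase-like protein), Peg3 (a zinc finger protein), Snrpn (a spliceosomal protein), Snhg14 (the snoRNA host transcript that runs through to Ube3a), Ndn (the MAGE protein necdin) and Zrsr1 (a splicing factor gene formed by retrotransposition) are paternally transcribed. Grb10, an adaptor that damps growth factor signalling, is read from the maternal copy in most tissues and from the paternal copy in neurons.

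All 10 identifiers matched the GENCODE vM21 annotation of GRCm38, which is used here for positions because the sources name no build for the count tables. Meg3 (ENSMUSG00000021268) spans chr12:109541001-109571726, Rian spans chr12:109603940-109661716 and Mirg spans chr12:109729764-109749460, all on the plus strand. Mest (ENSMUSG00000051855) spans chr6:30723547-30748465 on the plus strand and its end overlaps Copg2 on the opposite strand by 912 bp. Peg3 spans chr7:6703892-6730431, Snrpn spans chr7:59982495-60140219 and Snhg14 spans chr7:59307924-59975759, all on the minus strand. On the same strand, Snurf shares 9601 bp with Snrpn, and Gm38393 shares 22570 bp with Snrpn and 1611 bp with Snhg14. Counts of these pairs may be split by the counting. Ube3a shares 3613 bp with Snhg14 on the opposite strand. Ndn spans chr7:62346569-62350262 on the plus strand, Grb10 spans chr11:11930508-12038683 on the minus strand, and Zrsr1 spans chr11:22972005-22976496 on the plus strand, wholly within Commd1, which runs the other way.

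Promoter windows of RefSeq (GRCm38.p6, 250 bases before to 50 after a start) were found for all 10 genes, 17 windows in all, of which 16 are distinct because Snrpn and Snhg14 share 1. They were searched on both strands for TGCCGC, the hexamer bound by ZFP57 when its CpG is methylated, a protein that keeps germline methylation at imprinted loci. It was found in 5 of the 17 windows, those of 4 genes (Meg3, Mest, Snrpn and Grb10), and in 3813 of all 32851 RefSeq windows (11.6%) and 15 of the 75 windows of the other imprinted genes listed here (20.0%). A match is a string of letters and not a measured site. The windows of the 3 genes on which the comparisons below turn are given 5′ to 3′ on the gene's strand, with each match in capitals (GCGGCA is the hexamer read on the other strand).
Mest, chr6:30737800-30738099, plus strand: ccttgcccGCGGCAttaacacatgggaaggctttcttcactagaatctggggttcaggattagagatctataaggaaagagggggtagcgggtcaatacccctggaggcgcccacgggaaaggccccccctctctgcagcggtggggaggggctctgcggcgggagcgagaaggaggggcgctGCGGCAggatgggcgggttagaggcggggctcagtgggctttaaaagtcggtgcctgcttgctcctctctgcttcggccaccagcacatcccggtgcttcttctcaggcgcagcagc
Meg3, chr12:109540746-109541045, plus strand: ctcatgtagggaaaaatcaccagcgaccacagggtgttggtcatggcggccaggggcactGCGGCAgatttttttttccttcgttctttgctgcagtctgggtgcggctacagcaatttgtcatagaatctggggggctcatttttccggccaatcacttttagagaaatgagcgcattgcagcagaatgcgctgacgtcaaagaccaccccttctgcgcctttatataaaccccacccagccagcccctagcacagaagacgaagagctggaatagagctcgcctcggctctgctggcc
Grb10, chr11:12037371-12037670, minus strand: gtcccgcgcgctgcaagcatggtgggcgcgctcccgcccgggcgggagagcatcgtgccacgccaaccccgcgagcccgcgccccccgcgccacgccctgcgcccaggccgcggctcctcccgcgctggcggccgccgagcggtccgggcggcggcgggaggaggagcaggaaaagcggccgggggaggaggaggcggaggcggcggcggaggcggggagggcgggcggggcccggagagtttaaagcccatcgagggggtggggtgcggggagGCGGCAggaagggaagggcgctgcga
The Mest window holds 17 CpG and 2 matches, the Meg3 window 13 CpG and 1 match, and the Grb10 window 45 CpG and 1 match, where the median of all windows is 7 CpG.

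Several of these transcripts carry microRNAs. RefSeq places 37 mature miRNAs inside 4 of the genes on their strand, 26 in Mirg, 6 in Rian, 3 in Meg3 and 2 in Mest. Mature miRNAs were not measured here, and the UMIs below count the host transcripts. The miRNAs below are those of Mest, the one of the 10 with the largest fitted difference in Muller nuclei, the pair in Mirg that shares a seed, and 1 each from Meg3 and Rian, with the seed (bases 2 to 8) in capitals.
miR-335-5p (Mest intron): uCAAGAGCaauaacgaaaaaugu
miR-335-3p (Mest intron): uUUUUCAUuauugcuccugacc
miR-453 (Mirg intron): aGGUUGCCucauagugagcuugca
miR-496a-5p (Mirg intron): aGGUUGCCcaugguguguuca
miR-770-5p (Meg3 exon): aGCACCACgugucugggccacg
miR-370-3p (Rian intron): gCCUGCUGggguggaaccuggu
The 26 miRNAs in Mirg hold 25 seeds, and the seed GGUUGCC of miR-453 and miR-496a-5p is the only repeat among them.

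The 6 libraries held 8968 to 9965 barcodes and 36678332 to 48260748 UMIs, and any 2 libraries shared 18 to 30 barcodes. After filtering, 8214 to 9158 nuclei per library remained, with a median of 2786 to 3786 UMIs. Nuclei were clustered without the 10 genes and the other imprinted genes listed here. They were named from marker lists as rods, cones, bipolar cells (BC), amacrine cells (AC), horizontal cells (HC), retinal ganglion cells (RGC), Muller glia, astrocytes, microglia, endothelial cells and pericytes. UMIs were then summed per library and type, over nuclei whose total count was near the median of their type, and a level is given in CPM, the gene's UMIs scaled so that every sum has the same total, which is not divided by gene length and so is not compared between genes. Saline replicate 2 and IL-27 replicate 5 expressed Xist (2020 and 1990 CPM) and almost no Y-linked genes, while the other 4 libraries did the reverse, so each group holds 1 library of that kind. Markers of rods were at 189 to 491 CPM in the Muller sums, lowest in IL-27 replicate 5 and highest in IL-27 replicate 10.

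The maternally transcribed noncoding RNAs were highest in RGC. Meg3 measured 10080 ± 812 CPM in RGC (SD, n = 6 libraries), followed by 3559 ± 106 in AC, 974 ± 40.4 in BC, 925 ± 353 in pericytes, 849 ± 83.1 in HC and 301 ± 42.8 in Muller glia. The remaining 5 types lay between 76.3 ± 12.4 CPM in microglia and 111 CPM in cones. The microglial value depended on the limit on total counts, since over all nuclei of that type Meg3 measured 448 ± 314 CPM, 173 to 943 CPM by library, from 1608 UMIs in place of 246. Of the 110 levels of the 10 genes in 11 types, 13 moved by over 1.5 times when all nuclei were summed, 6 in microglia, 5 in pericytes, and Grb10 in BC and cones. Rian kept a similar order, with 1164 ± 73.1 CPM in RGC and 411 ± 37.9 in AC, and Mirg measured 203 ± 18.7 in RGC and 64.9 ± 3.05 in AC. The ratio of Rian to Meg3 CPM was 0.116 ± 0.0144 in RGC and 0.116 ± 0.0132 in AC (n = 6), and 0.234 ± 0.0357 in rods, where both are low. Over the 11 type means the log2 levels of Meg3 and Rian had a Pearson r of 0.99, those of Meg3 and Mirg 0.97, and those of Rian and Mirg 0.96. These r values describe 11 points from the same libraries.

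Neighbours in the order of levels were compared by an exact sign-flip permutation test over the 6 libraries, on log2(CPM + 1) and two-sided, over 100 pairs of neighbouring types for the 10 genes. With 6 libraries the smallest exact p is 0.03125, and the smallest value after Benjamini-Hochberg adjustment over the 100 pairs was 0.0893, so 0 pairs passed 0.05 after adjustment. In 35 of 100 pairs all 6 libraries pointed the same way, and in 30 of 100 when all nuclei were summed. For Meg3 these were RGC over AC, AC over BC, HC over Muller glia, Muller glia over cones and cones over rods. In contrast, BC, pericytes and HC could not be ordered for Meg3 (exact p = 0.531 and 0.969), nor could rods, endothelial cells, astrocytes and microglia.

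**Figure D1:**
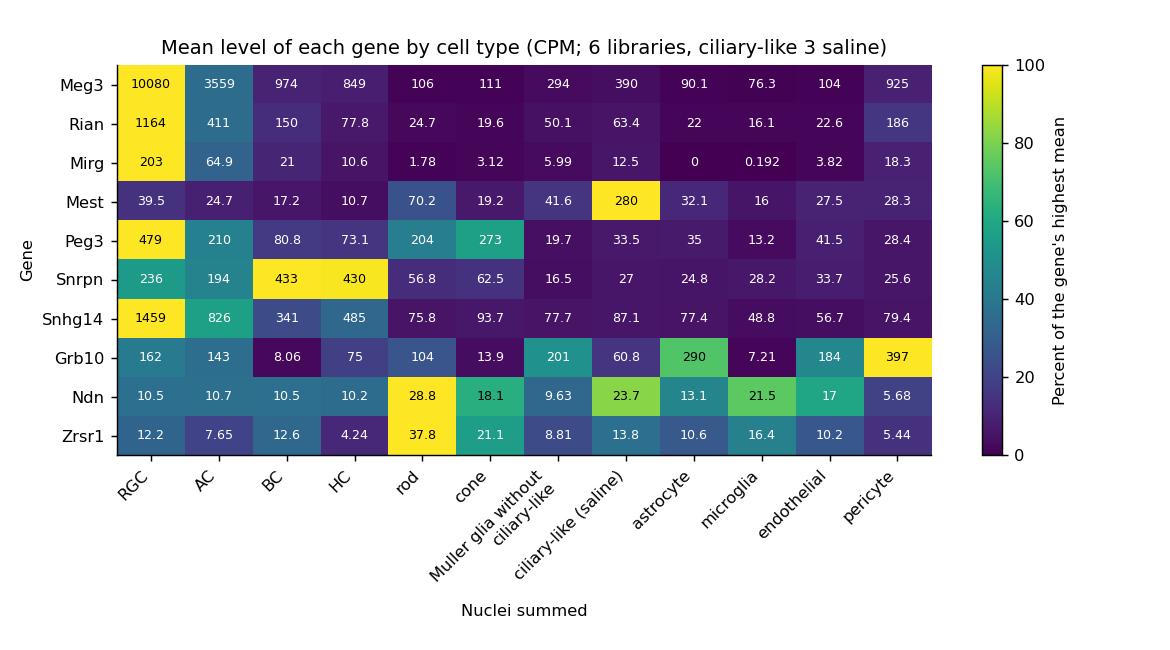
Mean CPM of the 10 imprinted genes (rows) in 12 kinds of nuclei (columns, with Muller glia split into ciliary-like and other nuclei), printed in each cell and coloured as a percent of the gene's highest mean; means are over 6 libraries, except the ciliary-like column, which holds the 3 saline libraries. Meg3, Rian, Mirg, Peg3 and Snhg14 peak in RGC, Snrpn in BC and HC, Grb10 in pericytes, Ndn and Zrsr1 in rods, and Mest in ciliary-like nuclei.

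The genes of the Snrpn-Ube3a locus did not share 1 order. Snhg14 followed Meg3 (r = 0.91 over 11 types), with 1459 ± 64.9 CPM in RGC, 826 ± 35.0 in AC, 485 ± 17.7 in HC and 341 ± 11.4 in BC, and 6 of 6 libraries kept that order. Snrpn, which lies upstream on the same strand, was instead highest in BC (433 ± 23.3 CPM) and HC (430 ± 28.4 CPM), which could not be told apart (exact p = 0.812), and 6 of 6 libraries placed HC above RGC (236 ± 22.6 CPM). The ratio of Snrpn to Snhg14 CPM was 1.27 ± 0.0818 in BC and 0.162 ± 0.0182 in RGC (n = 6). Muller glia held the least Snrpn, 17.5 ± 2.66 CPM. Ndn, further along the chromosome, measured 28.8 ± 5.36 CPM in rods and 21.5 ± 7.83 CPM in microglia, with 6 of 6 libraries higher in rods, and all other types lay between 5.68 and 18.1 CPM.

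Peg3 was also highest in RGC, at 479 ± 6.28 CPM, with cones next at 273 ± 28.3 CPM, then AC at 210 ± 16.7 and rods at 204 ± 15.04, and 6 of 6 libraries kept this order. It was the only 1 of the 10 for which cones ranked directly below RGC. Grb10 had another pattern, with 397 ± 115 CPM in pericytes, 290 ± 48.1 in astrocytes, 189 ± 19.1 in Muller glia and 184 ± 63.6 in endothelial cells, but also 162 ± 11.9 in RGC and 143 ± 6.19 in AC. Cones (13.9 ± 2.98 CPM), BC (8.06 ± 1.35 CPM) and microglia (7.21 ± 2.19 CPM) held the least Grb10, and over all nuclei these became 22.6, 13.1 and 17.5 CPM. Zrsr1 was highest in rods (37.8 ± 6.54 CPM) and cones (21.1 ± 5.19 CPM). Mest was highest in rods (70.2 ± 7.38 CPM) and Muller glia (59.3 ± 20.5 CPM), which were not ordered by the 6 libraries (exact p = 0.281), and 6 of 6 libraries placed Muller glia above RGC (39.5 ± 6.58 CPM). That order over RGC did not hold in all libraries without the ciliary-like nuclei described below. Muller glia then held 41.7 ± 6.41 CPM, and IL-27 replicate 10, at 32.2 CPM, lay below the lowest RGC library (33.7 CPM).

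Within AC and BC, the same genes varied between clusters, whose values are sums over all their nuclei. Over 12 AC clusters Meg3 ranged from 2031 ± 92.5 to 6390 ± 657 CPM, and the clusters at these ends were also the lowest and highest for Rian, Mirg and Mest. Over 9 BC clusters Meg3 ranged from 461 ± 72.3 to 2043 ± 196 CPM, and again the same clusters were lowest and highest for Rian and Mirg. Grb10 ranged from 2.46 ± 1.78 CPM, which rests on 7 UMIs, to 38.7 ± 9.79 CPM, which rests on 506 UMIs of 1444 nuclei, whereas Snrpn ranged 1.90-fold and Zrsr1 1.28-fold. Over the 1057 nuclei of that highest cluster within the limit on total counts, a setting added after the data were seen, Grb10 measured 28.7 ± 7.67 CPM from 175 UMIs, and it was again the highest BC cluster. Neither the 10 genes nor the other imprinted genes listed here were used to form these clusters.

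Genes with the most similar order of type means were sought among 15210 other genes that reached 10 CPM in at least 1 type. For Meg3 the 5 highest Pearson r values over 11 types belonged to Rian (0.99), B830012L14Rik (0.97), Rtl1 (0.97), Mirg (0.97) and Atl1 (0.95). Rtl1 is a paternally transcribed protein-coding gene that lies between Meg3 and Rian on the other strand.

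In Muller glia, the retina's radial glia, Mest was lower in the IL-27 libraries. It measured 78.7, 81.7 and 72.4 CPM in saline replicates 1, 2 and 6, and 45.2, 34.8 and 43.3 CPM in IL-27 replicates 4, 5 and 10. The groups did not overlap, and the fitted log2 fold change was -0.90 ± 0.12 (SE, n = 3 and 3). When the ciliary-like nuclei described below were removed, Mest measured 43.8, 47.6 and 45.7 CPM in saline and 45.5, 35.0 and 32.2 CPM in IL-27. These values overlapped, since IL-27 replicate 4 lay within the saline range, and the log2 fold change was -0.27 ± 0.15.

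Meg3 also did not overlap between groups, and its difference was as large without the ciliary-like nuclei. It measured 318, 354 and 336 CPM in saline and 290, 242 and 265 CPM in IL-27, a log2 fold change of -0.31 ± 0.11. Without the ciliary-like nuclei it measured 303, 338 and 335 CPM in saline and 289, 242 and 254 CPM in IL-27, again -0.31 ± 0.11. Rian measured 52.7, 61.0 and 57.7 CPM in saline and 50.6, 52.5 and 33.6 CPM in IL-27, so its groups were separated by less than 1 CPM and IL-27 replicate 10 was the lowest library. Without that library the log2 fold change of Rian was -0.10 in place of -0.29. Between the Xist-expressing libraries, 1 per group, the log2 ratio of IL-27 to saline CPM was -1.23 for Mest and -0.55 for Meg3, and among the other 4 libraries it was -0.77 and -0.24. Without the ciliary-like nuclei these ratios were -0.44 and -0.48, and -0.21 and -0.23.

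The 3 IL-27 libraries all lay below the 3 saline libraries for 5 of the 10 genes in Muller glia (Meg3, Rian, Mirg, Mest and Zrsr1), where 8.53% of the 13892 genes tested did so, and 0 of 10 lay wholly higher, where 5.54% did. Without the ciliary-like nuclei this held for 4 of 10 (Meg3, Rian, Grb10 and Zrsr1), against 5.62% of 13454 genes, and again 0 of 10 lay wholly higher, against 4.82%. Since the genes were chosen on this comparison, nothing is read from these counts. Zrsr1 measured 10.3, 10.8 and 11.02 CPM in saline and 6.80, 8.57 and 7.44 CPM in IL-27, with log2 fold changes of -0.46 ± 0.20 and -0.43 ± 0.23 with and without the ciliary-like nuclei. The remaining 5 genes overlapped between groups in the full Muller sums, with log2 fold changes between -0.28 (Ndn) and 0.04 (Snhg14). None of the 10 genes was called by edgeR's quasi-likelihood test at an adjusted p of 0.05 in either sum, where 0.036% and 0.0372% of genes were called. At an unadjusted p of 0.05, 3 of 10 passed with the ciliary-like nuclei, where 9.44% of all genes did, and 1 of 10 without, where 5.11% did. DESeq2 called Mest in the full Muller sums and no other member, where 104 of 13892 genes were called. Nothing is read from that call either.

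**Figure D2:**
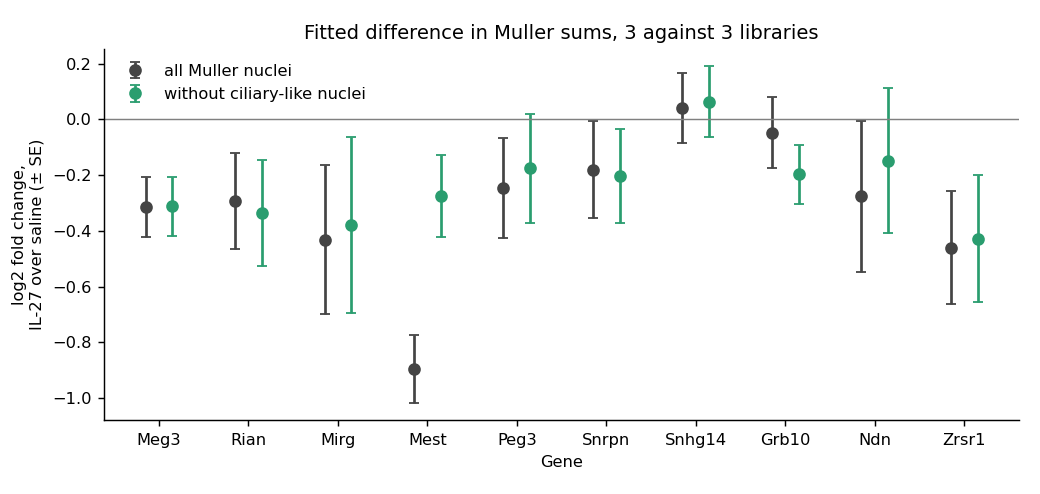
Fitted log2 fold change of IL-27 over saline (vertical axis, ± SE, 3 against 3 libraries) for the 10 imprinted genes in all Muller nuclei and without the ciliary-like nuclei. Mest moves from -0.90 to -0.27 when the ciliary-like nuclei are left out, and Meg3 stays at -0.31.

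The ciliary-like nuclei are a Muller subcluster chosen because it had the highest mean level of 4 genes, Csmd3, Fbln1, Frmpd4 and Reln. Of the 9 genes on the ciliary epithelium marker list, 5 met the naming rule in it (Zic1, Zic2, Otx1, Bmp4 and Bmp7), with Zic1 at 490 ± 43.2 CPM against 11 ± 1.12 CPM in other Muller nuclei of the saline libraries (n = 3). Col9a1 and Cyp1b1 of the same list were higher in the other Muller nuclei, Col9a1 at 1830 ± 137 against 1110 ± 122 CPM, so the name rests on those 5 genes. The subcluster made up 201 of 1056 (19%), 202 of 935 (21.6%) and 87 of 818 (10.6%) Muller nuclei summed in saline replicates 1, 2 and 6, and 11 of 768 (1.43%), 4 of 804 (0.498%) and 82 of 671 (12.2%) in IL-27 replicates 4, 5 and 10. Exact 95% binomial intervals were 8.61 to 13% for saline replicate 6 and 9.84 to 14.9% for IL-27 replicate 10, so these libraries overlap in share, and the intervals cover counting error only. These 5 genes summed to 805 to 906 CPM in the ciliary-like nuclei of the saline libraries, to 837 CPM in IL-27 replicate 10, and to 178 and 639 CPM in the few nuclei of IL-27 replicates 4 and 5, against 14.9 to 19.7 CPM in the other Muller nuclei of the 6 libraries.

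Mest was far higher in the ciliary-like nuclei than in the other Muller nuclei of the same library. It measured 276, 227 and 337 CPM in saline replicates 1, 2 and 6 and 149 CPM in IL-27 replicate 10, which is 6.30-fold, 4.76-fold, 7.38-fold and 4.63-fold the level in the other Muller nuclei. The 11 ciliary-like nuclei of IL-27 replicate 4 held 1 Mest UMI and the 4 of IL-27 replicate 5 held 0, which allows up to 148 CPM, so no level is drawn from those libraries. Ciliary-like nuclei thus carried 52.6%, 52.7% and 42.6% of all Mest UMIs of Muller glia in saline, 32.8% in IL-27 replicate 10, and 0.654% and 0% in IL-27 replicates 4 and 5.

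Grb10 ran the other way. In saline replicates 1, 2 and 6 it measured 59.5, 57.8 and 65.0 CPM in ciliary-like nuclei against 201, 206 and 240 CPM in the other Muller nuclei, and 64.4 against 182 CPM in IL-27 replicate 10. In the few ciliary-like nuclei of IL-27 replicate 4 Grb10 measured 152 against 187 CPM, from 6 UMIs. In those of IL-27 replicate 5 it was the higher, at 443 against 194 CPM, from 9 UMIs. Ndn measured 26.4, 10.6 and 34.0 CPM against 8.16, 8.86 and 13.4 CPM in saline, and Peg3 44.95, 30.7 and 24.8 CPM against 20.8, 19.4 and 22.7 CPM. Meg3 differed little, with 403, 420 and 347 CPM against 303, 338 and 335 CPM. In the fit with the library as a block, the log2 differences were 2.49 for Mest, 1.08 for Ndn, 0.67 for Peg3, 0.19 for Meg3 and -1.90 for Grb10. In that fit 4 of the 10 genes were called (Mest, Ndn and Peg3 higher, Grb10 lower), beside 42.4% of the 12668 genes tested, and since the subcluster was drawn from these nuclei the calls are no evidence.

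**Figure D3:**
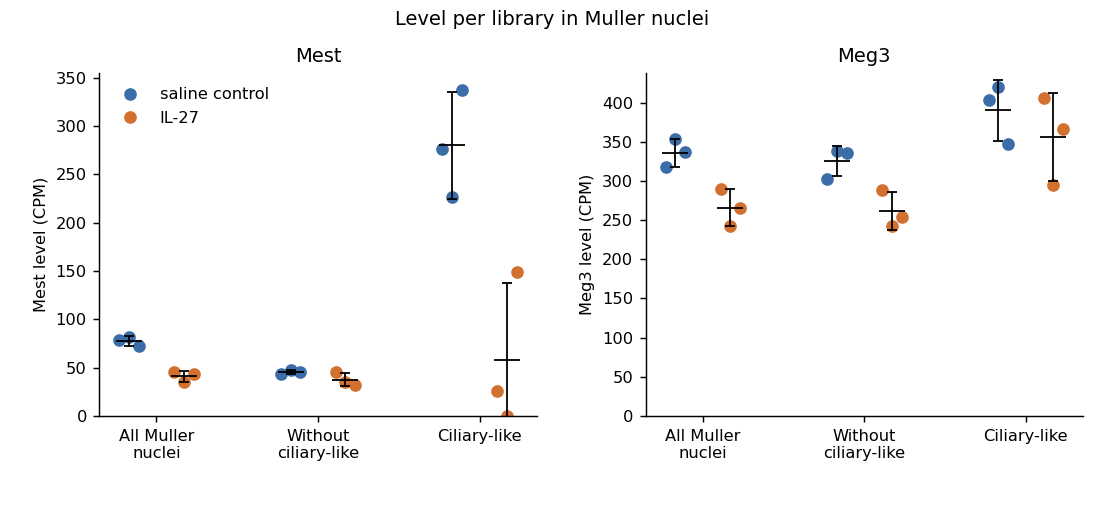
Mest (left) and Meg3 (right) levels in CPM for each saline and IL-27 library, in all Muller nuclei, without the ciliary-like nuclei and in the ciliary-like nuclei; bars are the mean ± SD of 3 libraries. Saline Mest goes from 72.4 to 81.7 CPM down to 43.8 to 47.6 CPM when the ciliary-like nuclei are left out, and Meg3 stays above the IL-27 libraries in both sums; the lowest ciliary-like Mest points are the libraries with 1 and 0 Mest UMIs.

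**Figure D4:**
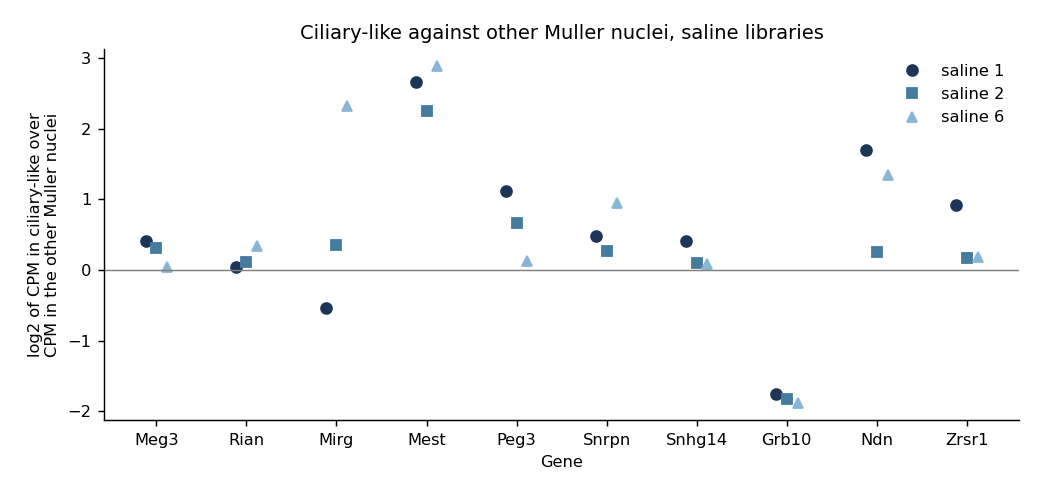
Log2 ratio of CPM in ciliary-like nuclei over CPM in the other Muller nuclei (vertical axis) for the 10 imprinted genes in each of the 3 saline libraries. Mest lies above 0 and Grb10 below 0 in all 3 libraries, and Mirg lies on both sides of 0.

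The other Muller nuclei were not uniform in these genes. Of their subclusters, number 0 (1889 nuclei) was led by Abca8a and Glul, number 1 (1582 nuclei) by Neat1, Crym and Cd44, and number 2 (1073 nuclei) by Adamts19, Efnb2 and Prss56. Of these 3 subclusters Meg3 was lowest in number 1 in every library, with 147 to 185 CPM, against 265 to 403 CPM in subcluster 0 and 364 to 534 CPM in subcluster 2. The smaller subcluster 5 (110 nuclei), led by Rsad2 and Cxcl10, held 160 ± 87.0 CPM of Meg3 and 15.1 ± 4.66 CPM of Mest over the 4 libraries with enough nuclei. The Meg3 value rests on 110 UMIs and the Mest value on only 9. Subcluster 1 held 24.0 ± 2.94% of Muller nuclei in saline and 37.5 ± 14.4% in IL-27, with 20.8%, 45.4% and 46.2% in IL-27 replicates 4, 5 and 10, and subcluster 2 held 16.5 ± 0.764% and 25 ± 4.66%.

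Between groups within a subcluster, Meg3 measured 372 ± 41.6 CPM in saline and 284 ± 22.1 CPM in IL-27 in subcluster 0 (n = 3 and 3), and these groups did not overlap. IL-27 replicate 10 held only 78 nuclei of subcluster 0, where the other libraries held 252 to 438. In subcluster 1 Meg3 measured 155 ± 11.6 and 168 ± 14.7 CPM, and in subcluster 2 it measured 489 ± 42.4 and 400 ± 48.2 CPM, and both overlapped. Mest measured 50.7 ± 3.65 and 31.7 ± 6.93 CPM in subcluster 0, without overlap, and 25.3 ± 2.28 and 28.4 ± 5.76 CPM in subcluster 1. In subcluster 2 it measured 67.5 ± 21.0 and 63.7 ± 9.6 CPM, with overlap. Rian in subcluster 0, and Mirg and Grb10 in subcluster 2, were also separated and lower in IL-27. The other members overlapped in these subclusters. The share of all genes separated within a subcluster was not computed, so nothing is read from these separations. In subcluster 1, led by Neat1 and Cd44, the IL-27 mean was thus not the lower of the pair for Meg3 or for Mest. The share of subcluster 1 was above all saline libraries in 2 of 3 IL-27 libraries, and its part in the Meg3 difference of the summed nuclei was not tested.

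**Figure D5:**
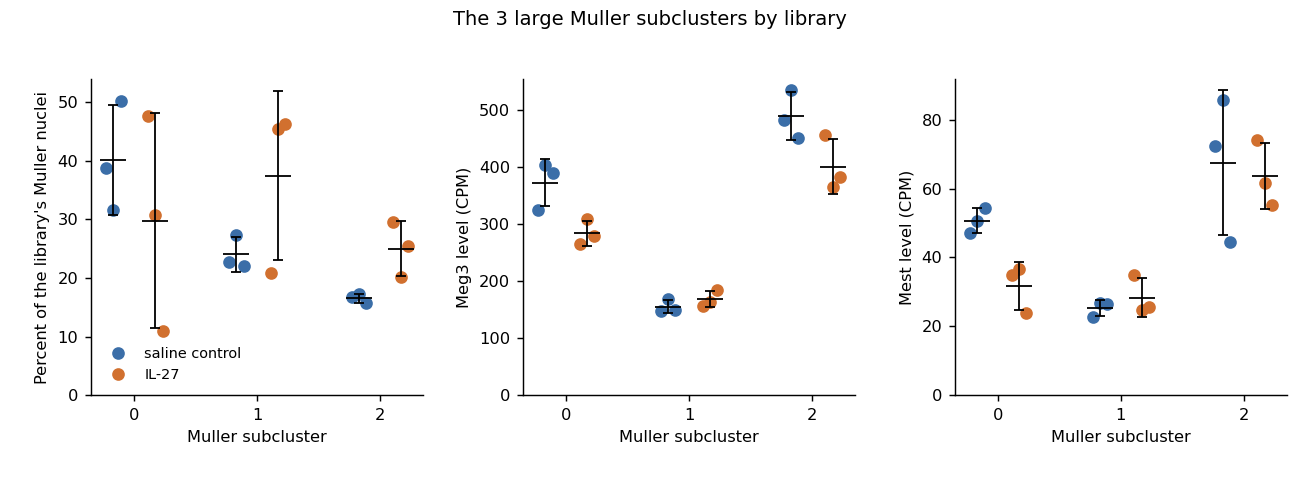
Share of Muller nuclei (left, percent), Meg3 level (middle, CPM) and Mest level (right, CPM) in Muller subclusters 0, 1 and 2 for each saline and IL-27 library; bars are the mean ± SD of 3 libraries. Of the 3 subclusters plotted, Meg3 is lowest in subcluster 1 in every library. Mest is lowest there by group mean, but in IL-27 replicates 4 and 10 it is slightly lower in subcluster 0. For both genes the groups overlap in subcluster 1 and are separated in subcluster 0, where IL-27 replicate 10 holds 78 nuclei.

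In RGC, Meg3 measured 10030, 9774 and 10400 CPM in saline and 8991, 9870 and 11450 CPM in IL-27, a log2 fold change of 0.03, and in AC and BC it was -0.01 in each. The filter on low counts let through all 10 genes in AC, BC and RGC, 9 in rods and cones, 8 in HC, 5 in microglia, 3 in astrocytes, 2 in pericytes and 1 in endothelial cells, so counts in the last 4 types leave members out. No member was called in any of these 10 types. The share of all genes called was 0.00604% in AC, 0.00755% in rods, 0.112% in pericytes and 0% in the other 7 types. Over the 12 fits of IL-27 against saline, 4 of 87 member tests had an unadjusted p under 0.05, all in the Muller sums, and in each fit 2.91 to 9.44% of all genes did. Zrsr1 was lower in IL-27 in 7 of the 7 types that it was tested in, Muller glia among them. Its log2 fold changes ran from -0.04 in BC to -0.97 ± 0.51 (SE) in microglia, which rests on 49 UMIs. In each of these types 48.8 to 50.4% of all genes were lower. The 7 types come from the same libraries. The share of all genes lower in all 7 was not computed, so nothing is read from that count. The Zrsr1 groups did not overlap in AC (7.94, 7.99 and 8.68 against 7.45, 6.52 and 7.32 CPM), where 4.86% of genes lay wholly lower. In RGC, Peg3 (472, 473 and 478 against 484, 489 and 478 CPM) and Snhg14 (1386, 1417 and 1442 against 1480, 1574 and 1454 CPM) were wholly higher in IL-27, as were 3.19% of genes, and Peg3 was separated by less than 1 CPM. No other member that passed the filter was separated between groups outside Muller glia. The shares of all genes that lay wholly lower and wholly higher in IL-27 were 5.71% and 3.09% in BC, 4.61% and 5.0% in HC, 5.07% and 4.13% in cones, and 4.37% and 4.04% in rods. They were 3.54% and 5.38% in astrocytes, 3.7% and 4.37% in microglia, 3.53% and 4.17% in endothelial cells, and 5.26% and 3.8% in pericytes. In AC 3.52% of genes lay wholly higher, and in RGC 5.68% lay wholly lower.

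The other imprinted genes were taken from a list of 67 measured genes outside the 10. In Muller glia 41 passed the filter and none was called, with 22 lower and 19 higher in IL-27 and a median log2 fold change of -0.01, beside 0.00 over all genes. The 3 IL-27 libraries lay wholly below saline for 3 of the 41 (Rtl1, Mcts2 and Phactr2) and wholly above for 2 (Tssc4 and Sfmbt2), beside 8.53% and 5.54% of all genes. Mcts2, a retrogene inside H13 that was picked out after its values were seen, measured 6.67 ± 0.343 CPM in saline and 3.25 ± 0.611 CPM in IL-27 (n = 3 and 3), a log2 fold change of -1.01 ± 0.27, with an adjusted p of 0.252 by edgeR. Without the ciliary-like nuclei it was again wholly lower (5.53 ± 0.543 and 2.81 ± 0.378 CPM), the only 1 of 39, at -0.96 ± 0.31 (adjusted p = 0.904 by edgeR). The median of the 10 members was -0.28, but they were chosen on this comparison, so nothing is read from their medians. Without the ciliary-like nuclei the medians were -0.01 for 39 other imprinted genes and -0.24 for the 10. Over the 12 fits, 374 tests gave 0 calls by edgeR and 17 with an unadjusted p under 0.05, and DESeq2 also called 0. Some neighbours of the members were near 0 in Muller glia. Copg2 (a coatomer subunit, beside Mest) stood at 0.11, Commd1 (host of Zrsr1) at -0.06 and Ube3a (a ubiquitin ligase) at 0.03. Begain (beside Dlk1) stood at 0.09 and Cobl (an actin nucleator beside Grb10) at -0.12. Dio3 and Rtl1, both of the Dlk1-Dio3 locus, were further from 0, and Dio3 stood at -0.60 ± 0.65. Rtl1 stood at -0.59 ± 0.26 with the ciliary-like nuclei and -0.03 ± 0.31 without them.

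Between the ciliary-like and the other Muller nuclei, 12 of 40 other imprinted genes were called higher and 7 lower. Of all 12668 genes tested, 2694 were called higher and 2675 lower, and no evidence is drawn, as above. Dio3, the deiodinase that inactivates thyroid hormone at the far end of the Dlk1-Dio3 locus, measured 17.6 ± 5.78 CPM in ciliary-like nuclei and 0.772 ± 0.706 CPM in the others of the saline libraries (n = 3). Pon3, a lactonase, measured 78.3 ± 11.8 against 11.1 ± 2.37 CPM, Rasgrf1, an exchange factor for Ras, 39.1 ± 2.98 against 4.65 ± 0.927 CPM, and Rtl1 16.99 ± 1.41 against 3.86 ± 0.117 CPM. Begain, a postsynaptic protein gene next to Dlk1, ran the other way with 12.7 ± 10.8 against 232 ± 20.3 CPM, as did Atp10a, a flippase, with 3.73 ± 3.25 against 28.9 ± 8.36 CPM. Also higher were Phactr2 (326 ± 24.0 against 129 ± 9.19 CPM) and Gnas (311 ± 18.1 against 153 ± 13.4 CPM), and also lower were Gab1 (201 ± 11.5 against 387 ± 18.3 CPM), Sfmbt2 (22.5 ± 11.8 against 49.4 ± 3.08 CPM) and Cobl (348 ± 36.3 against 421 ± 6.56 CPM). Within the Dlk1-Dio3 locus, Dio3 and Rtl1 were thus higher, Begain lower, and Meg3 and Rian near equal in the ciliary-like nuclei. Dlk1 itself had no UMI in any Muller sum.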

How the data were processed

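Nuclei of 6 rd10 retina libraries were profiled by 10x 3′ single-nucleus RNA-seq. The authors deposited whole UMI counts per gene and barcode from Cell Ranger (9.0.1 per the labels, 8.0.1 per the file headers), without normalization, and analysed them in Seurat 5.2.1. The genome build is not given in the sources used here. The authors' limits were applied (over 500 UMIs, 200 genes or more, mitochondrial share below 5%), and Scrublet-scored doublets were removed at an expected rate of 8%. Without the members and the other imprinted genes listed here, 2000 variable genes, 25 components and 20 neighbours entered Louvain clustering (resolution 0.25, scanpy 1.11.5). Clusters were named where at least 3 listed markers were raised, and mixed and unnamed nuclei were left out. Muller nuclei were clustered again, and the subcluster highest in Fbln1, Frmpd4, Reln and Csmd3 was called ciliary-like. Counts were summed per library and type over nuclei within 2 median absolute deviations of the median log2 UMI count; cluster and Muller subcluster values use all nuclei.

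Sums were tested with edgeR 4.0.16 (filterByExpr at 10 counts, TMM, quasi-likelihood, Benjamini-Hochberg threshold 0.05), after the scripts were tested on simulated data. The SE of a fitted log2 fold change is its absolute value divided by the square root of the quasi-likelihood F statistic. Members and lists were chosen with earlier results of these data known. All 10 members are named; other imprinted genes are named where called (up to 5 each way) or as neighbours. Alternatives were DESeq2 1.42.0, other scalings, filters, nuclei, doublets and clusterings, and each library left out. Zrsr1 and Snrpn have near-identical relatives (Zrsr2, Snrpb), so their counts are uncertain. The genes with a pattern most like that of Mest are not reported here.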

Additional observations from a re-analysis of the deposited data

How the results depend on the processing

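No paired analysis was made, because each mouse received either saline or IL-27 in 1 eye. The saline libraries (1, 2, 6) and IL-27 libraries (4, 5, 10) thus come from different mice. In Muller glia 5 genes were called, against 104 by DESeq2, 3 with library totals, 345 with no filter, 8 with all nuclei summed, 2 with no doublet removal, and 0 to 410 with 1 library left out (410 without IL-27 replicate 10). Without ciliary-like nuclei 5 became 22 by DESeq2, 112 with no filter, 2 with no doublet removal and 0 to 10 with 1 library left out. Over the other types 3 became 6, 194 and 5 under the same settings and 4 to 18 with 1 library left out. Between ciliary-like and other Muller nuclei DESeq2 called 3449 genes in place of 5369. Of the 10 members, 0 calls over 12 fits became 1, Mest in Muller glia, by DESeq2 (adjusted p = 0.000145) and, by edgeR, with no filter (adjusted p = 7.47e-05), with all nuclei summed (adjusted p = 0.0483) and without IL-27 replicate 10 (adjusted p = 0.00418). Mest was chosen with this comparison known, so these values show how the call depends on the setting and carry no test. With 1 library left out, the count was 0 to 1. With no filter 2 other imprinted genes were called, Nap1l5 in BC and Pon3 in Muller glia. In ciliary-like nuclei the 4 calls became 2 by DESeq2 and 2 to 4 with 1 library left out, as Peg3 and Ndn were lost without saline replicate 1. Mest in Muller glia ranged from -0.98 to -0.80 over 15 settings and Meg3 from -0.39 to -0.26. Without ciliary-like nuclei they ranged from -0.44 to -0.17 and from -0.40 to -0.24. The causes were not tested. Pericytes, endothelial cells and astrocytes held too few UMIs to order most members.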
